A study of Gallus gallus with 6 samples.

Results

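The 124 predicted miRNAs of 20 to 24 nt are the candidates of mature miRNA length in small RNA of the cock testis that carry a predicted name and not that of a listed miRNA. They were taken from the table by name and length. Every sequence called a predicted candidate (a name that begins with PC-5p or PC-3p) and 20 to 24 letters long was kept, and lines with the same sequence were counted once. The 124 sequences stood on 133 lines under 125 names, among 1151 distinct sequences in the table and 317 predicted sequences of all lengths. The libraries came from testes of 40-week-old breeder cocks of the Cobb500 breed, with 3 libraries from the A group, whose feed carried 10 g/kg of Astragalus polysaccharide (APS), a plant polysaccharide given as a feed additive, and 3 from the C group, fed the corn and soybean diet without it. The study's methods describe biological replicates of each diet, with testes taken from different birds, whereas the labels number the replicates and name no birds. The p-values measure the spread between these libraries. Each library was made from whole testis, where fewer cells of a type and less RNA per cell cannot be told apart.

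An animal miRNA is cut from a hairpin transcript by Drosha and Dicer, which leave a short duplex with overhanging 3′ ends. One strand, from the 5′ arm (5p) or the 3′ arm (3p) of the hairpin, is loaded into an Argonaute protein and finds its targets mainly through its seed, bases 2 to 8. In the testis Dicer and miRNAs are needed for germ cells and for the somatic cells around them, while the piRNAs of germ cells are longer, are made without Dicer and mostly start with U, which is written T here. A predicted candidate is a read whose surrounding genome sequence can fold into a hairpin, which many sequences that are not miRNAs can also do. The candidates carry no gene names, and the digits in a name give no position in the genome. Their positions were not analysed here.

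The 12 most abundant predicted miRNAs are shown because they carry most of the reads, each 5′ to 3′ with the seed in capitals.
PC-5p-398_3403: gAGCGGTCgtcagcctccggccc
PC-5p-10507_358 and PC-3p-10507_358: tGTTCTTCtgccagcgctggggc
PC-5p-28067_159: tCCTATGGcatcactggggccggc
PC-3p-1073_1694: gAGCGGTCgtcagcctccggccct
PC-5p-3655_746: tTCCTCTTtggggcctggatgct
PC-5p-21310_203: cTCCTTACccgctctgcagcctct
PC-5p-20326_212: tTTTGAGGaagatacgcgtgata
PC-5p-11309_338: tCCCGAGGgacctgggcacttgct
PC-3p-52432_89: tGTCCCAGgacgcagtggctcatc
PC-5p-54732_85: tCCTTGGGaaactggatggtcaga
PC-5p-37716_121: tGGGTCTGgctctcctctgctgct
PC-5p-47227_98: cAGGCCTGgctgttcctgggcacc

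Library totals were 497286 to 743187 counts, and a count of 0 in a library allows up to 3 counts, or 4.04 to 6.03 CPM before scaling, for counting error only. The gonad miRNA miR-202, with its 2 arms, had 40016 to 56204 CPM in A libraries and 44228 to 66440 CPM in C libraries, where CPM are counts scaled to a common library total after TMM normalization. The chicken miRNAs typical of late germ cells and ciliated cells (miR-34b, miR-34c and miR-449, with reads for 7 of 7 sequences) summed to 1007 to 1121 CPM in A libraries and 702 to 847 CPM in C libraries, without overlap. This holds for the sum, where gga-miR-34b-5p was the most abundant. Of the 7 sequences, 1 had an unadjusted p under 0.05 in edgeR, against 5.94% of all sequences tested. The part of these miRNAs in the differences below was not tested. The lists for red blood cells, white blood cells, striated muscle, liver and brain overlapped between the diets, and no sequence of any list was at 0 in all libraries. C replicate 2 stood apart in another respect. It held 28 sequences named after miRNAs of other species at 4 counts or more that were at 0 in both other C libraries. By the same limits within a diet, A replicate 3 held 6, C replicate 3 held 1 and the other libraries held 0.

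The predicted miRNAs were a small and steep fraction of the counts listed as miRNAs, which are only a part of the small RNA reads of the testis. They held 33690 counts, 0.909% of the counts of all 1151 listed sequences, against 82.4% for the 372 chicken miRNAs of the same lengths. The median predicted miRNA had a mean of 8.54 CPM and 31.5 counts over the 6 libraries. PC-5p-398_3403 alone held 37.0% of the counts of the 124, the top 5 held 65.7% and the top 12 held 80.9%. By mean CPM, 1 member was at 1000 or more, 13 were at 100 to 1000, 44 at 10 to 100, 64 at 1 to 10 and 2 under 1. The plot of levels by rank shows this fall.

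**Figure D1:**
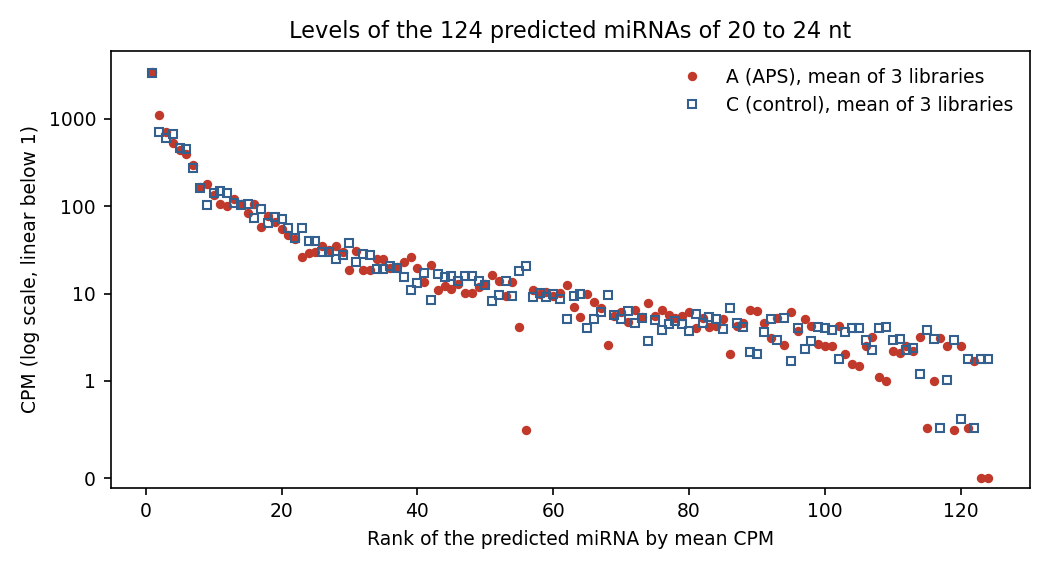
Mean CPM of each predicted miRNA of 20 to 24 nt (log axis, linear below 1) against its rank by mean CPM. Red dots are the mean of the 3 A libraries and open blue squares that of the 3 C libraries. PC-5p-398_3403 leads at 3438 CPM in A and 3373 CPM in C, and the 2 sequences at the far right were at 0 in all A libraries.

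PC-5p-398_3403 was read 1879, 1792 and 2967 times in the A libraries, against 2269, 1555 and 2006 times in the C libraries. The diets overlapped, at 3438 ± 868 CPM in A and 3373 ± 864 CPM in C (SD, n = 3 libraries each). PC-3p-1073_1694, the same sequence with 1 more base at its 3′ end, had 190, 263 and 580 counts in A and 499, 329 and 347 counts in C. One of the pair is named for the 5p arm and the other for the 3p arm, although they are the same strand of the same sequence. Of the reads of both, the longer form took 9.18%, 12.8% and 16.4% in the A libraries and 18.03%, 17.5% and 14.7% in the C libraries. A replicate 1 had the lowest share of the longer form, and the ranges of the diets overlapped.

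PC-5p-28067_159 had 322, 644 and 394 counts in the A libraries and 275, 484 and 318 counts in the C libraries. The second library was the highest on both diets, also after scaling. The 26-nt candidate PC-3p-50259_92, listed by the study next to it, had 83, 255 and 113 counts in A and 34, 216 and 67 counts in C, again highest in the second library of each diet. Over the 774 sequences tested, deviations of log2 CPM from the diet mean were no more alike in same-numbered libraries than in others. The correlations of these deviations were 0.05, 0.01 and -0.07, against -0.11 to 0.10 for A and C libraries of different numbers.

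PC-5p-21310_203 was the steadiest of the abundant members within A, at 399 ± 5.26 CPM in A and 446 ± 68.6 CPM in C (SD, n = 3 libraries each). PC-5p-3655_746 was at 444 ± 53.4 CPM in A and 463 ± 89.8 CPM in C, and PC-5p-20326_212 at 294 ± 54.6 CPM in A and 273 ± 84.7 CPM in C (SD, n = 3 libraries each). Both overlapped between the diets. Among the 19 members with at least 20 counts in every library, the SD within a diet was lowest relative to the mean in PC-5p-37716_121, at 9.80%, and highest in PC-5p-47227_98, at 52.8%. PC-5p-47227_98 had 36, 116 and 43 counts in the A libraries and 109, 88 and 54 counts in the C libraries, so A replicate 2 and C replicate 1 were high.

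The spread between libraries of one diet had a larger median in predicted than in chicken miRNAs of the same length. At 100 CPM or more, the median SD was 22.7% of the mean in 14 predicted miRNAs and 16.03% in 97 chicken miRNAs. The predicted miRNAs in that range were less abundant (median 223.2 CPM) than the chicken ones (median 909 CPM). At 10 to 100 CPM, the median was 37.0% in 44 predicted miRNAs at a median of 19.9 CPM and 30.7% in 61 chicken miRNAs at a median of 27.9 CPM. These are descriptions at unequal depth, without a test.

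Most of the predicted miRNAs were read in every library. Reads were found in 6 libraries for 81 of the 124, in 5 for 19, in 4 for 14, in 3 for 6, in 2 for 2 and in 1 for 2. All 124 had at least 3 counts in some library, as had all predicted sequences of the other lengths, whereas 40.3% of the 372 chicken miRNAs did not reach 3 counts in any. Of the predicted miRNAs 65.3% were in all 6 libraries, against 86.9% of the 222 chicken miRNAs that reached 3 counts, at median levels of 8.54 CPM in the predicted and 53.0 CPM in these chicken miRNAs. The A libraries held 102, 113 and 106 of the predicted miRNAs and the C libraries 116, 112 and 112, a mean of 107 ± 5.57 in A and 113 ± 2.31 in C (SD, n = 3 libraries each) that overlapped. With at least 3 counts required, the libraries held 82, 89 and 88 in A and 95, 84 and 78 in C.

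**Figure D2:**
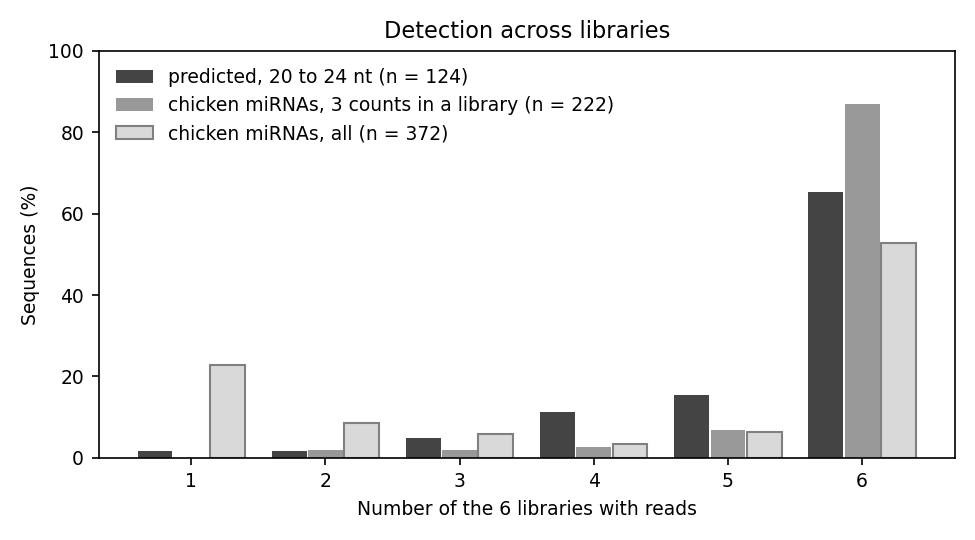
Share of sequences (%) against the number of libraries in which they had reads, for the predicted miRNAs of 20 to 24 nt (dark bars), the chicken miRNAs of that length with at least 3 counts in a library (grey bars) and all of these chicken miRNAs (light bars). Of the predicted miRNAs 65.3% were in all 6 libraries, and 1.61% were in 1 library only.

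Both diets had reads of 122 of the 124. The other 2, PC-3p-1339990_3 and PC-3p-2415732_2, had 3 counts each in C replicate 1 and 0 in all other libraries, too few to tell a difference at this depth. In 12 members more than 50% of the counts lay in 1 library, and 4 of these had at least 20 counts in all. Among these 4, the most uneven was PC-3p-492301_8, with 92.7% of its 41 counts in C replicate 2.

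A set of members was read in A replicate 2 and missing from A replicates 1 and 3. With the limits of 0 counts in both of these and at least 4 in A replicate 2, which were set after the values were seen, there were 6 such members, and 8 such sequences in the whole table, all of them predicted. The same limits turned to A replicate 1 or A replicate 3 gave 0 members, and 2 and 6 sequences in the whole table. Turned to the C libraries, they gave 1 member in C replicate 2 (PC-3p-915763_4) and 0 in C replicates 1 and 3. In the whole table they gave 4, 29 and 2 sequences in C replicates 1, 2 and 3. Of the 29, 28 were named after miRNAs of other species. PC-5p-208997_21 had 0, 25 and 0 counts in the A libraries and 20, 0 and 1 counts in the C libraries. PC-3p-489864_8, the 3p candidate next to it in the study's list, had 0, 24 and 0 counts in A and 22, 3 and 1 counts in C. The best duplex of the 2 has only 13 paired bases, and the list does not call them partners. Both were thus high in A replicate 2 and C replicate 1 and at or near 0 elsewhere, and their gaps were far above what a count of 0 allows. Their sequences are shown for this shared pattern, with seeds in capitals.
PC-5p-208997_21: tAAGAAGGtgactcgaagctgcct
PC-3p-489864_8: tGTCTGTGgatcccagttctggct

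PC-3p-511018_8 had 0, 8 and 0 counts in the A libraries and 19, 11 and 2 counts in the C libraries. PC-3p-1493521_3 had 0, 5 and 0 counts in A and 7, 1 and 8 counts in C. PC-5p-975917_4 had 0, 5 and 0 counts in A against 5, 1 and 3 counts in C, and PC-3p-2522867_2 had 0, 4 and 0 counts in A against 3, 0 and 3 counts in C. In each of these 4, most reads lay in C libraries, and the counts were low. The limits required 0 counts in A replicates 1 and 3 and set none on the C libraries, which favours this balance.

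**Figure D3:**
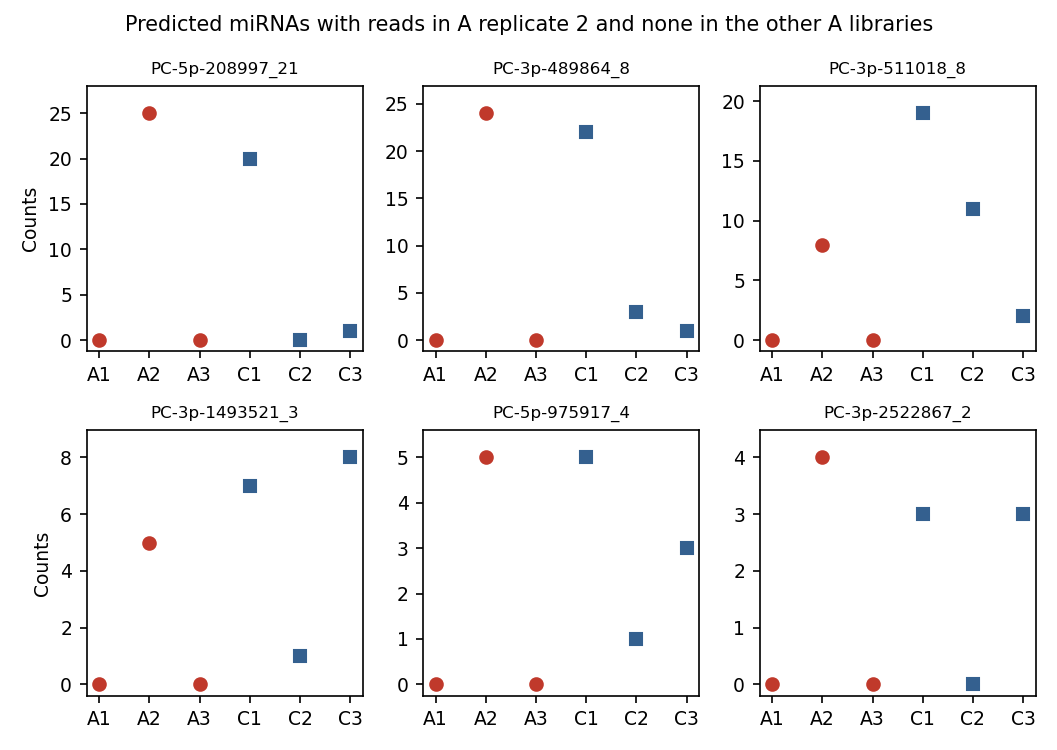
Counts per library of the 6 predicted miRNAs with at least 4 counts in A replicate 2 and 0 in A replicates 1 and 3 (red dots A libraries, blue squares C libraries). PC-5p-208997_21 and PC-3p-489864_8 share their peaks in A replicate 2 (25 and 24 counts) and C replicate 1 (20 and 22 counts).

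The predicted miRNAs differed from chicken miRNAs in length and base composition. There were 11 of 20 nt, 18 of 21 nt, 29 of 22 nt, 22 of 23 nt and 44 of 24 nt, so that 24 nt, the upper limit of the rule, was the most frequent length, whereas the chicken miRNAs peaked at 22 nt with 161 of 372. By counts, 57.8% of the reads were of 23 nt, mostly from PC-5p-398_3403, and 34.6% of 24 nt. The median GC content was 58.3%, against 45.8% in chicken miRNAs, 52.6% in predicted sequences of 18 to 19 nt and 53.8% in those of 25 to 26 nt. T was the first base of 73 of the 124 (58.9%), against 43.3% of the chicken miRNAs, 39.4% of predicted sequences of 18 to 19 nt and 58.6% of those of 25 to 26 nt. A was first in 9.68%, against 27.4% of the chicken miRNAs. The share with T first was 31 of 44 at 24 nt and 12 of 29 at 22 nt. Among chicken miRNAs with at least 3 counts in a library, the share with T first was 44.6% and the median GC content 45.5%, so the gap was about as large with rarely read entries left out. By counts, T came first in 44.1% of the reads of the predicted miRNAs and G in 45.1%, where PC-5p-398_3403 starts with G.

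Names for the 5p arm were given to 65 members, names for the 3p arm to 58, and both to 1. The 5p members had a median of 10.1 CPM and the 3p members one of 5.50 CPM. The 5p members held 72.9% of the counts and the 3p members 17.2%, with the sequence of both names holding the rest. PC-5p-398_3403 alone held 37.0% of all members' counts, while its longer form on the same strand, PC-3p-1073_1694, counts as 3p. The split thus follows the names and does not measure strand use. T was the first base in 61.5% of the 5p members and 55.2% of the 3p members.

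Both arm names were given under 1 number in a single case. PC-5p-10507_358 and PC-3p-10507_358 have the same 23-nt sequence, and its reads were divided equally between the names, so the names give no evidence of 2 arms. Summed, it had 675, 748 and 683 counts in the A libraries and 270, 564 and 426 counts in the C libraries, so every A library was above every C library. PC-5p-112025_40, the same sequence without the last base, had 53, 105 and 73.5 counts in A and 54, 66.5 and 71 counts in C, and its diets overlapped. The shorter form was 7.28%, 12.3% and 9.72% of the reads of both in the A libraries and 16.7%, 10.5% and 14.3% in the C libraries. These shares overlapped between the diets, with C replicate 2 below A replicate 2.

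Several candidates were thus variants of one read. Of the 124, 21 (16.9%) shared a run of at least 18 bases with another sequence of the table. These partners were other members for 11, predicted sequences of 25 to 26 nt for 13, 1 of 18 to 19 nt for 1 and a chicken miRNA for 1, and some members had several. The first 8 bases were the same in 15 of the 21, so that these differed at the 3′ end. For 11 of the 21 an overlapping partner was named for the other arm. The family that starts with tcccgagg and the 24-nt read PC-3p-29351_153 with its longer form are shown with seeds in capitals, because their names and ends differ while their bases are shared.
PC-5p-11309_338: tCCCGAGGgacctgggcacttgct
PC-3p-111583_41: tCCCGAGGgacctgggcacttgctct
PC-5p-187229_23: tCCCGAGGgacctgggcacttga
PC-5p-1065108_4: tCCCGAGGgacctgggcatt
PC-3p-29351_153: tCAGAGTAgaggcagcgctgcggc
PC-3p-19523_219: tGTCAGAGtagaggcagcgctgcggc

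PC-5p-11309_338 had 91.5, 103 and 122 counts in the A libraries and 71, 110 and 102.5 counts in the C libraries, and the 26-nt PC-3p-111583_41 took 29.9% to 36.7% of their joint reads in A and 25.7% to 30.5% in C. PC-3p-29351_153 differs from its 26-nt form at the 5′ end, so the seeds of these forms are different. The 26-nt form was the more abundant, with 66.2% to 75.1% of their joint reads in A and 64.1% to 77.8% in C. PC-5p-3655_746 was more abundant than its 25-nt form PC-3p-5076_599, which took 37.2% to 44.3% of the reads in A and 39.6% to 46.4% in C. For PC-5p-37716_121 the 25-nt form PC-3p-29538_152 took 51.3% to 65.4% in A and 52.2% to 58.4% in C. The shares of these 4 pairs overlapped between the diets. For PC-5p-427705_10, whose diets overlapped at 6, 6 and 8 counts in A and 6, 6 and 4 counts in C, 2 forms of 26 nt were listed.

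Seeds were mostly unique. The 124 had 117 different seeds, and 12 members (9.68%) shared a seed with another member, against 24.2% of the chicken miRNAs of that length. Of the 5 shared seeds, AGCGGTC (PC-5p-398_3403 and PC-3p-1073_1694), GTTCTTC (PC-5p-10507_358 and PC-5p-112025_40) and CCCGAGG came from variants of one read. CCTTGGG was shared by PC-5p-54732_85 and PC-5p-114826_39, which differ in the rest of their bases. AGGACAA was shared by 3 near-identical reads, PC-5p-392403_11, PC-5p-1534164_3 and PC-5p-456869_9. The first 2 of them share a run of 22 bases, and PC-5p-456869_9 differs from PC-5p-392403_11 at the first base and at a base after the seed.

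Seeds of chicken miRNAs were found in 6 members. The seed of PC-5p-10507_358 and PC-5p-112025_40 is that of the listed gga-miR-22-5p read, the passenger strand of miR-22, and PC-5p-10507_358 with its 3p name was at 904 CPM, against 119 CPM for that read. PC-5p-208515_21 has the seed of gga-miR-302a, a miRNA of pluripotent cells. PC-5p-208515_21 had 8, 5 and 0 counts in the A libraries and 5, 4 and 7 counts in the C libraries, against 1 count of gga-miR-302a in all libraries. PC-5p-71982_65 has the seed of gga-miR-1784-5p and PC-3p-355163_12 that of a gga-mir-6700 read. PC-3p-358708_12 (agagtgtctgttacctgaccac) contains the whole 20-nt gga-miR-7465-3p. It had 1, 5 and 5 counts in A and 2, 4 and 2 counts in C, while the chicken entry had 1 count in all, so the predicted name held nearly all of these reads.

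Whether 5p and 3p names stand for strands of a duplex was examined by pairing every 5p-named with every 3p-named predicted sequence, where at least 1 was a member. By the limits of at least 14 paired bases, an energy of -20 kcal/mol or lower and 3′ overhangs of 1 to 3 bases at both ends, 21 of 15988 combinations (0.131%) passed. Overhangs were counted from the positions that RNAduplex gave, which can take in an unpaired base beside the duplex. Some overhangs were thus counted 1 base short, so pairs near the limits could be wrongly left out or kept. The same limits and count passed 64 of 44764 combinations (0.143%) of members with chicken miRNAs. Because every sequence was set against every other, nearly all combinations join sequences that are not candidate partners. The shares therefore cannot tell whether the list of 21 holds duplexes of one hairpin. The strongest 2 of the 21 kept by this count were PC-5p-201155_22 with PC-3p-532391_8 (-26.4 kcal/mol) and PC-5p-47227_98 with PC-3p-52432_89. A stronger pair, PC-5p-312668_13 with PC-3p-746015_5 (18 paired bases, -28.2 kcal/mol), was left out because its overhangs were counted as 1 and 0.

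In the study's own list of sequences a 5p candidate is often followed by a 3p candidate, and 72 such neighbours held at least 1 member. They were read after the values were known. Of the 72, 11 (15.3%) had at least 18 paired bases, against 0.594% of all combinations, while 9 were overlapping reads of one strand, which shared at least 16 bases, such as PC-5p-398_3403 with PC-3p-1073_1694. In the other 52 neither was the case. The median was 11 paired bases in neighbours and 10 in all combinations. Candidates were named where the genome around a read could fold into a hairpin. Reads from opposite arms of one predicted hairpin thus tend to pair by selection. The contrast with all combinations therefore cannot tell whether the pairs were cut as miRNA duplexes. The reads of the 11 pairs were few, from 13 to 326 counts per sequence over the 6 libraries, and the 5p sequence had more counts in 8 of the 11. No limit was set on their overhangs. Of the 11 pairs, 5 are shown with the bases that pair in capitals. Counted as above, their 3′ overhangs (5p, then 3p sequence) were 0 and 3, -1 and -1, 0 and 0, 1 and 2, and 1 and 0 bases, in the order shown. A negative count means that the 5′ end of the partner protruded, unlike in the duplex that Drosha and Dicer leave. They are the 4 with the most paired bases, ties ordered by energy, and 1 of several further pairs with both reads in every library.
PC-5p-389334_11: GCGGACAAAGGACGATGGCAc
PC-3p-1350108_3: TGCCATCGTCCTTTGTCCGCtgtt
PC-5p-208515_21: taAGTGcTGGCCGTTGTCCTCT
PC-3p-234558_18: ttAGAGGACAATGGCCAaTACT
PC-5p-165142_27: aCAAAGTCCAGcAGCTTAGCT
PC-3p-360459_12: cAGCTAAGCTaTTGGACTTTGc
PC-5p-201155_22: aGGCAGTGTAttGTTAGTTaGCTgc
PC-3p-532391_8: AGCAACTAACTACACTGCCact
PC-5p-71982_65: TTCTGCTCcTATTtAAGTCAat
PC-3p-77518_60: TGATTTcAATAaGAGCAGAAt

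**Figure D4:**
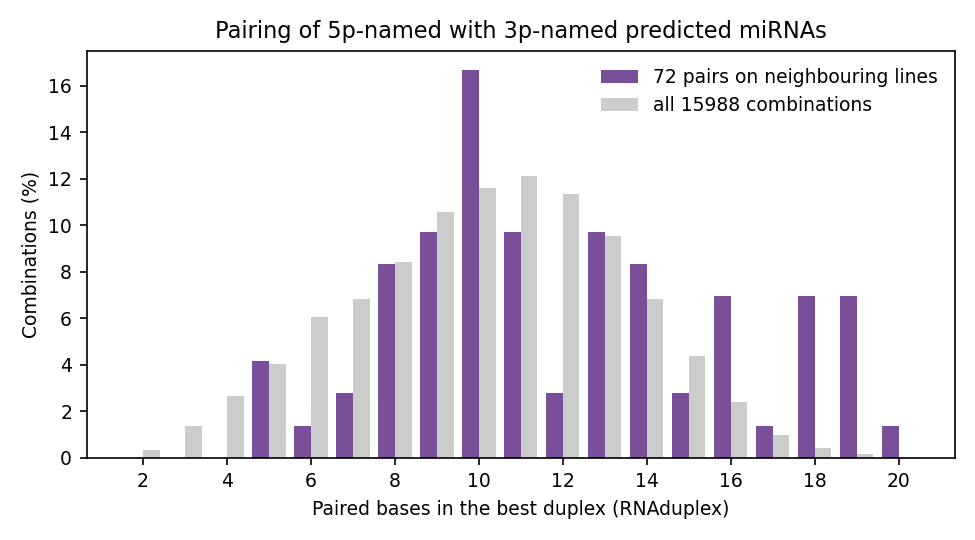
Share of combinations (%) against the number of paired bases in the best duplex of a 5p-named with a 3p-named predicted miRNA, for the 72 pairs on neighbouring lines (purple bars) and all 15988 combinations (grey bars). Neighbours had at least 18 paired bases in 15.3% and all combinations in 0.594%. Naming candidates by a predicted hairpin favours such a contrast.

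PC-5p-389334_11 and PC-3p-1350108_3 pair without a gap or mismatch over 20 bases (-41.5 kcal/mol). The 5p read had 8, 5 and 14 counts in the A libraries and 5, 8 and 4 counts in the C libraries. The 3p read had 9, 1 and 2 counts in A and 1, 3 and 0 counts in C, so it was missing from C replicate 3. PC-5p-71982_65 and PC-3p-77518_60 (18 paired bases, -19.3 kcal/mol) were read more evenly, the 5p at 16, 15 and 17 counts in A and 11, 13 and 10 counts in C, the 3p at 13, 16 and 30 counts in A and 13, 18 and 10 counts in C. PC-3p-532391_8 pairs with 19 bases of the 25-nt PC-5p-201155_22, whose first 23 bases are the sequence listed as a miR-449c-5p read of another species, of the miR-34 and miR-449 group of germ and ciliated cells. PC-3p-532391_8 had 6, 5 and 1 counts in A and 3, 3 and 2 counts in C. The miR-449c-5p read had 146, 119 and 87 counts in A and 78, 72 and 72 counts in C, so its strand was the more abundant by far.

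The comparison of A with C asked whether APS in the feed changed the predicted miRNAs. No predicted miRNA passed an adjusted p of 0.05 in edgeR's quasi-likelihood test with Benjamini-Hochberg adjustment over the 774 sequences tested (0.0% called over all sequences, lowest adjusted p of a member 0.690), with 5 at an unadjusted p under 0.05 (4.03% of the members, against 5.94% of all sequences). All 124 members passed the filter on low values. Of the 5, 3 were higher in A (2.42% of the members, against 2.45% of all 774) and 2 lower in A (1.61% against 3.49%), so the shares were at or under those of the whole table. DESeq2's Wald test also called 0 at an adjusted p under 0.05, with a lowest adjusted p of 0.798. In CPM, the A libraries all lay above the C libraries in 6 members (4.84%, against 5.94% of all sequences) and below them in 10 (8.06% against 7.11%), together 12.9% against 13.0% of all sequences tested. Some of these gaps came from library scaling alone. For example, PC-3p-492301_8 and PC-3p-1879599_2 each had 1 count in A replicate 3 and 1 in C replicate 3. The median log2 fold change of A over C was -0.03 for the members and -0.08 for all, with 61 members above 0 and 63 below. Summed, the members reached 9305 ± 1058 CPM in A and 9046 ± 1036 CPM in C (SD, n = 3 libraries each), which overlapped.

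PC-3p-52432_89 had 98, 126 and 123.5 counts in the A libraries and 45.5, 81 and 58.5 counts in the C libraries. All A libraries were above all C libraries, at 181 ± 15.0 CPM in A and 104 ± 21.4 CPM in C (SD, n = 3 libraries each; two-sided exact permutation p = 0.1, the smallest that 3 libraries against 3 allow). The log2 fold change was 0.79 (standard error 0.23, unadjusted p = 0.00802 and adjusted p = 0.690 from edgeR). With each library left out in turn and in the other settings tried, its unadjusted p was 0.00504 to 0.0332. The exact permutation p was 0.1 for each of the 5, and their adjusted p was 0.690. For PC-3p-492301_8 this order rested on single counts that differed only by scaling. A replicate 3 was at 1.49 CPM, C replicate 1 at 1.79 CPM and C replicate 3 at 1.82 CPM, with 1 count each.

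The sequence named both PC-5p-10507_358 and PC-3p-10507_358 stood at 1098 ± 71.8 CPM in A and 710 ± 202 CPM in C (SD, n = 3 libraries each), a log2 fold change of 0.63 (standard error 0.23, unadjusted p = 0.0220 from edgeR). C replicate 1 was the lowest by far, with 270 counts, and without it the log2 fold change was 0.42 and the unadjusted p 0.0524. Without A replicate 1 or A replicate 2 the unadjusted p was 0.0573 and 0.0625. The study's list has PC-3p-52432_89 next to this sequence. The best duplex of PC-5p-10507_358 with PC-3p-52432_89 had only 14 paired bases (-20.4 kcal/mol), and its overhangs were outside the limits of 1 to 3 bases. The form 1 base shorter, PC-5p-112025_40, had a log2 fold change of 0.14 (standard error 0.28).

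PC-5p-76057_61 had 17, 16 and 17 counts in the A libraries and 2, 11 and 7 counts in the C libraries, a log2 fold change of 1.20 (standard error 0.48, unadjusted p = 0.0333 from edgeR). C replicate 1 was again the lowest, and the unadjusted p was 0.0723 without it, 0.0612 without C replicate 3, and 0.0841, 0.0537 and 0.0635 without A replicates 1, 2 and 3. The 3p candidate next to it in the study's list, PC-3p-915763_4, had 4, 3 and 5 counts in A and 0, 4 and 0 counts in C. These 2 form 16 base pairs with 3′ overhangs of 2 bases at each end.

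PC-3p-371451_11 had 10, 11 and 15 counts in the A libraries and 28, 16 and 21 counts in the C libraries, a log2 fold change of -0.999 (standard error 0.37, unadjusted p = 0.0232 from edgeR). All A libraries were below all C libraries. The unadjusted p was 0.0703 and 0.0567 without A replicates 1 and 2, and 0.0898 and 0.0511 without C replicates 1 and 3. PC-3p-492301_8 had 0, 0 and 1 counts in A and 1, 38 and 1 counts in C, a log2 fold change of -4.90 (standard error 1.63, unadjusted p = 0.0142 from edgeR). The ratio of its counts, A over C, was 0.0230 with an exact 95% interval of 5.67e-04 to 0.136 for counting error only. Its difference rested on C replicate 2. Without that library the log2 fold change was -1.49 and the unadjusted p 0.402, and without A replicate 1 the unadjusted p was 0.0559. Without the filter on low values its adjusted p was 4.81e-05 in edgeR, and over the settings with the filter it was not under 0.05.

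**Figure D5:**
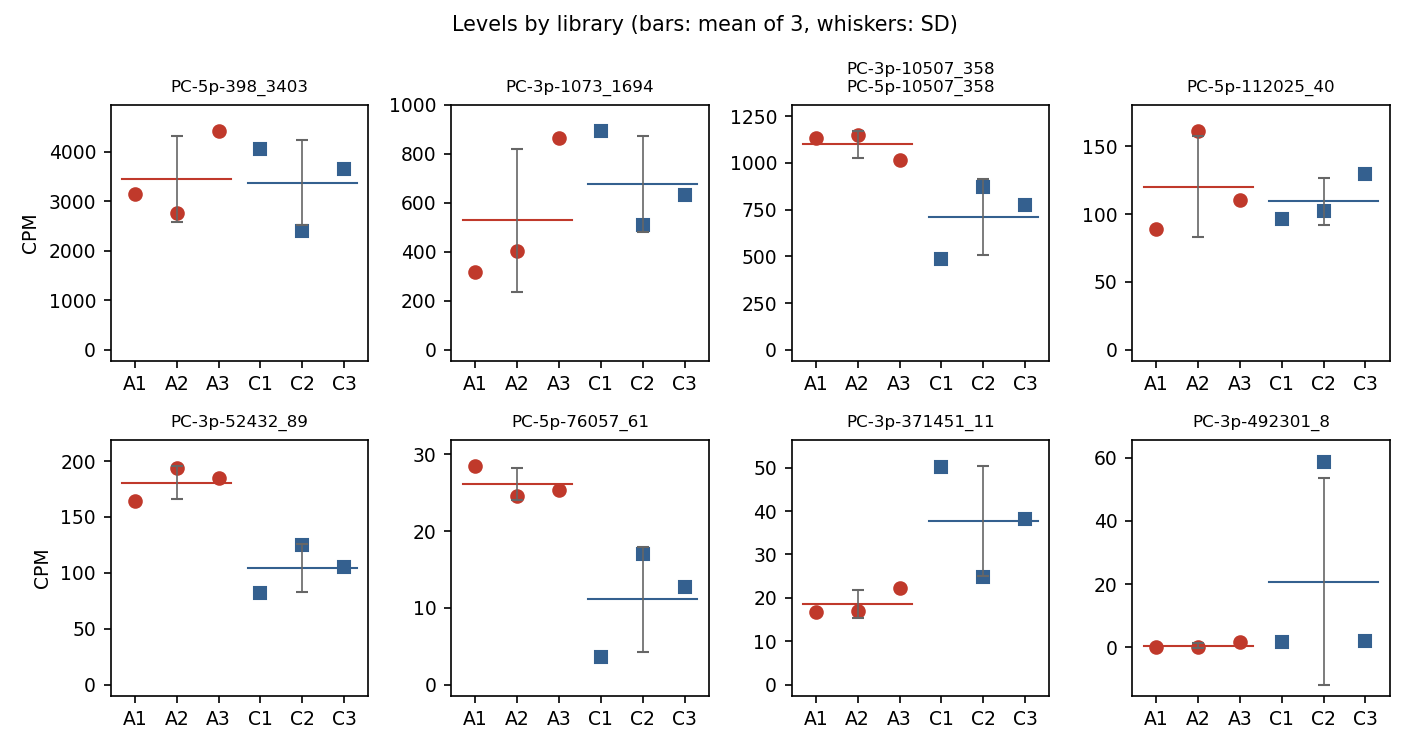
CPM in each library (red dots A1 to A3, blue squares C1 to C3) with the mean of each diet (line) and its SD (whisker, n = 3 libraries). The upper row has the 2 most abundant pairs of overlapping reads, and the lower row PC-3p-52432_89, PC-5p-76057_61, PC-3p-371451_11 and PC-3p-492301_8, which had an unadjusted p under 0.05 in edgeR. PC-3p-52432_89 was at 181 CPM in A and 104 CPM in C, and the C mean of PC-3p-492301_8 came from 1 library.

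The number of members at an unadjusted p under 0.05 also moved with single libraries. It was 1 higher and 1 lower in A without A replicate 1, 6 higher without C replicate 2, 8 lower without A replicate 2, 7 lower without A replicate 3 and 1 lower without C replicate 1. Shares over all sequences are given here for the fit with all libraries only. These counts therefore cannot tell the members from the whole table.

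Among the 12 most abundant, PC-5p-37716_121 also had diets that did not overlap in CPM, with 58, 73 and 74 counts in A and 94, 91 and 75 counts in C. It had 106 ± 8.09 CPM in A and 149 ± 17.2 CPM in C (SD, n = 3 libraries each), a log2 fold change of -0.48 (standard error 0.22, edgeR's adjusted p = 0.690). The abundant PC-5p-54732_85 and PC-5p-11309_338 had log2 fold changes of -0.08 and 0.03 (standard error 0.23 each), with overlapping diets. PC-5p-118249_38 had 19, 14 and 17 counts in A and 59, 23 and 16 counts in C, so C replicate 1 alone was high.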

How the data were processed

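Small RNA libraries (TruSeq) of 3 A and 3 C testes were processed by the authors with ACGT101-miR 4.2. Reads of 18 to 26 nt were kept, filtered of other RNA families and aligned to miRBase 21.0 precursors with up to 1 mismatch. Unmatched reads were placed on a chicken genome (build: not given in the sources used here) and became candidates where RNAfold predicted a hairpin. Raw values as deposited are expected counts, with reads of a sequence on several lines divided equally, and 88.5% of the members' values were whole (within 0.001). After the lines of one sequence were summed, 15 members still had fractional values. Division between lines of one sequence thus does not account for every fraction. The normalized values that the authors deposited are a signal, each raw count multiplied by a constant of its library. Their fold changes, p-values and group means were not used.

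Lines of one sequence were summed and rounded to whole counts for the test. The 774 sequences whose normalized values averaged 1 or more on either diet were tested by edgeR 4.0.16 in R 4.3.3 (TMM, quasi-likelihood, Benjamini-Hochberg over all of them). The biological coefficient of variation was 30.5%. The script was tested on simulated counts. Duplexes were computed with RNAduplex of ViennaRNA 2.7.2. Other steps used Python 3.11.15 with scipy 1.17.1 and pandas 2.3.3. Precision was set by the library totals (497286 to 743187 counts), and the reads carried no molecular tags, so limits cover counting error only.

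The members and lists were chosen with earlier results of these data known. Named members are the 12 most abundant, those with both arm names, up to 8 per direction with the smallest unadjusted p under 0.05, up to 6 with the seed of a chicken miRNA, up to 6 that share at least 18 bases with a more abundant sequence, and those with the lowest and highest spread among members with at least 20 counts in every library. The rule also took in both members of every listed duplex, but these are named in part only. They were cut because the limits passed a similar share of combinations with chicken miRNAs. That share cannot tell whether the listed pairs are duplexes of one hairpin. Members singled out for library patterns, the neighbours in the study's list, PC-5p-118249_38 and the end variants were chosen after their values were seen. Alternatives were no filter, a minimum of 10, DESeq2 1.42.0 size factors and Wald test, valid reads as library sizes, limma 3.58.1 on log2 normalized values (pseudocount 1 or 0.5), the study's test on normalized values, 1 row per name, a replicate block, and each library left out.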

Additional observations from a re-analysis of the deposited data

How the results depend on the processing

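The number of members with an unadjusted p under 0.05 that were higher in A (3 in edgeR) was 1 with valid reads as library sizes, and 1 to 6 with a library left out. The number lower in A (2) was 5 without a filter on low values and with the replicate block, 4 with DESeq2 size factors, with limma at either pseudocount, with the study's test and with 1 row per name, 1 in DESeq2's Wald test, and 1 to 8 with a library left out. It was 1 when members with more than 50% of their counts in 1 library were set aside, an alternative chosen after seeing the data. For these alternatives no share over all sequences is given, so the counts cannot tell the members from the whole table. The number at an adjusted p under 0.05 (0) was 1 without a filter, PC-3p-492301_8 at 4.81e-05 in edgeR. In the other settings the lowest adjusted p of a member was 0.129 (replicate block) to 0.863 (without A replicate 1). The cause was not tested. The 5 named log2 fold changes kept their sign in all 16 settings. PC-3p-52432_89 kept an unadjusted p under 0.05 in 16 of 16, PC-3p-492301_8, PC-5p-10507_358 with its 3p name and PC-3p-371451_11 in 11 each and PC-5p-76057_61 in 9. Over the 774 sequences tested, deviations of log2 CPM from the diet mean were hardly correlated between libraries with the same replicate number (0.05, 0.01 and -0.07). What the libraries of a block share beyond the number was not tested. The log2 ratio of the summed levels stayed between -0.06 and 0.10. The mean number of members detected per library, A minus C, was -6.33, but 0.667 at a limit of 3 counts, and -9.33 to -3.83 with a library left out. Duplexes by the fixed limits (21), with some overhangs counted 1 base short, numbered 24 at 12 paired bases and 2 at -25 kcal/mol. Among neighbours, 11 had 18 paired bases or more, without a limit on overhangs. Only 19 of 124 members had 20 counts or more in every library, which limits the precision of the others.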
